A study of Homo sapiens with 8 samples.

Results

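The small MAF proteins MAFF, MAFG and MAFK, the NRF factors NFE2L1 (the protein NRF1) and NFE2L2 (the protein NRF2), the repressors BACH1 and BACH2, and KEAP1 were followed on arrays of 293T cells given 1 of 3 compounds. The members were all probe sets that the annotation of the array assigns to 1 of these 8 symbols, under a current or an older name. This gave 20 of 54675 probe sets and 7 of the 8 genes. No probe set of the annotation used here carries MAFK, which was not analysed here. Of the 20 probe sets, 16 carry a single gene symbol and 4 are shared with another gene. The name NRF1 also belongs to nuclear respiratory factor 1, another gene, and its 5 probe sets were left out.

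293T cells derive from human embryonic kidney and express the large T antigen of SV40. Cells received EerI, CBU-028 or 5-NA at 10 µM for 10 h, and a group named control completed the design, with 2 arrays in each of the 4 groups. EerI inhibits degradation of proteins from the endoplasmic reticulum (ER) and has a nitrofuran-containing unit joined to an aromatic domain, and 5-NA (5-nitrofuryl-acrolein) corresponds to the nitrofuran-containing unit without the aromatic domain. CBU-028, known by a code name, comes from a library of compounds that join the same nitrofuran-containing unit to varied benzene-containing groups. What the control cells received is not given in the sources used here. The cells were treated in duplicates, which the study calls biological replicates, and the p-values measure the spread between these duplicates. The titles of the 5-NA arrays carry the number of another compound in the study's list, whereas all their other labels say 5-NA.

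The values are log2 values made with RMA, an algorithm that corrects for background, equalizes the distribution of values between arrays and combines the probes of each probe set. A unit of 1 is thus a 2-fold change. The duplicates of each group differed by a median of 0.0738 to 0.138, which was smallest for control and widest for CBU-028. Of 7 markers expected in the line, 6 (VIM, NEFL, KRT18, LIN28B, NEFM and KRT8) had means between 9.44 and 13.7 and PAX2 had a mean of 6.70, against 4.63 to 5.45 for PTPRC, MS4A1 and ALB, markers of blood cells and liver, and 6.75 to 9.15 for CD79A, COL1A1, DCN and PECAM1. A probe set is called changed here at an adjusted p under 0.05 in limma, after Benjamini-Hochberg adjustment across the 54675 probe sets in each comparison.

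Small MAF proteins have a basic leucine zipper but no activation domain. They bind DNA as partners of the NRF factors, which activate antioxidant, detoxification and proteasome genes, or of the BACH factors, which repress an overlapping set until heme or oxidants release them. NRF2 is held at a low level by KEAP1, an adaptor that brings it to a ubiquitin ligase and that electrophiles modify, while NRF1 is inserted in the ER membrane, is extracted by the ATPase p97 and activates proteasome genes when the proteasome fails. Most of this control acts on the proteins, which an array of RNA does not measure.

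The promoters of both small MAF genes are shown because MAFF 36711_at and MAFG 204970_s_at had the largest rises among the member probe sets with CBU-028 and 5-NA. The windows run from 250 bases before to 50 bases after an annotated start, from RefSeq on the GRCh38.p14 build. The promoter set used here holds a pair of starts for MAFF and 1 for MAFG. The MAFG gene is annotated at chr17:81918270-81931244, so its only window lies inside the gene. The upstream end of the MAFG gene was not scanned for motifs. The MAFF window printed is that of the start with motif matches, chr22:38201744-38202043 on the plus strand and the MAFG window is chr17:81927686-81927985 on the minus strand, both printed in the direction of transcription. Capitals mark a match to the cyclic AMP response element TGACGTCA and one to the core of the antioxidant response element, TGACNNNGC, read on either strand.

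MAFF: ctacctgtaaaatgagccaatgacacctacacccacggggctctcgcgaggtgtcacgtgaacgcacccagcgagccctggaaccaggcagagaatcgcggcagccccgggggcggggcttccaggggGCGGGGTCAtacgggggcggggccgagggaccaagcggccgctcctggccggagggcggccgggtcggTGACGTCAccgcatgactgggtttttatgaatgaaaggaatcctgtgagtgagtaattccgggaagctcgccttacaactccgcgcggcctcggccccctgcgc

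MAFG: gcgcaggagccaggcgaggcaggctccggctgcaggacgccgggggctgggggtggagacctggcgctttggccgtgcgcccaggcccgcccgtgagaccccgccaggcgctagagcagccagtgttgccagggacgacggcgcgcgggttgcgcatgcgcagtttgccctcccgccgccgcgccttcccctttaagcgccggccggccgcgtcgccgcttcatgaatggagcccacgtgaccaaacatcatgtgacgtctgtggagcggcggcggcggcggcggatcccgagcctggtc

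In this MAFF window the cyclic AMP response element began 54 bases before the start and the antioxidant core 122 bases before it, whereas the window of the other MAFF start, chr22:38202770-38203069, and the MAFG window held neither. The cyclic AMP response element was in 1.85% and the antioxidant core in 13.3% of 35116 promoter windows of this length. Of the 13 windows of the members, 2 held the cyclic AMP response element (1 each of MAFF and BACH2) and 2 the antioxidant core (1 each of MAFF and KEAP1, with 2 matches in that of KEAP1, at 54 and 31 bases before the start). The AP-1 site TGAGTCA was in 1 window, 48 bases before the start of BACH1, and in 4.95% of all windows. The motif TGATGNAA was in 3.62% of all windows, and the long palindromic MAF recognition element in 0 of them, and no window of a member held either. The motifs were chosen after the sequences were seen, a match is a description of letters only, and no binding was measured.

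Among the member probe sets, MAFF 36711_at and MAFG 204970_s_at had the largest rises against control with CBU-028 and 5-NA. The other MAFF probe set, 205193_at, was called with 5-NA at 0.45, below NFE2L2 201146_at at 0.75 and BACH1 204194_at at 0.63. NFE2L2 and NFE2L1 passed the test with CBU-028 and 5-NA on some of their probe sets, BACH1 passed it with 5-NA, and KEAP1 and BACH2 did not pass the test in any comparison. Against control, no member was called with EerI, where 0.357% of all probe sets were called higher and 0.17% lower. With CBU-028, 6 of 20 were called higher, against 4.4% of all probe sets, and 1 lower, against 5.27%. With 5-NA, 8 were called higher, against 7.32% of all probe sets, and 1 lower, against 7.9%. Of those called higher, 2 with CBU-028 and 3 with 5-NA were also at least 2-fold, against 0.254% and 0.483% of all probe sets. Both arrays of EerI lay above both of control for 11 members and below for 3, against 24.6% and 22.6% of all probe sets. The counts were 13 and 3 with CBU-028, against 24.9% and 24.8%, and 12 and 3 with 5-NA, against 27.6% and 30.8%. The median difference of the 20 members was 0.14 with EerI, 0.27 with CBU-028 and 0.30 with 5-NA, and that of all probe sets lay between −0.01 and 0.01. At an unadjusted p under 0.05 in limma, 6 members were higher with EerI, against 4.86% of all probe sets, and 0 lower, against 5.0%. The methods' analysis of variance called 0 with EerI after adjustment, where it called 0.064% of all probe sets higher and 0.0329% lower. Several probe sets measure 1 gene, so these counts are not counts of independent genes, and the comparisons share the control arrays.

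**Figure D1:**
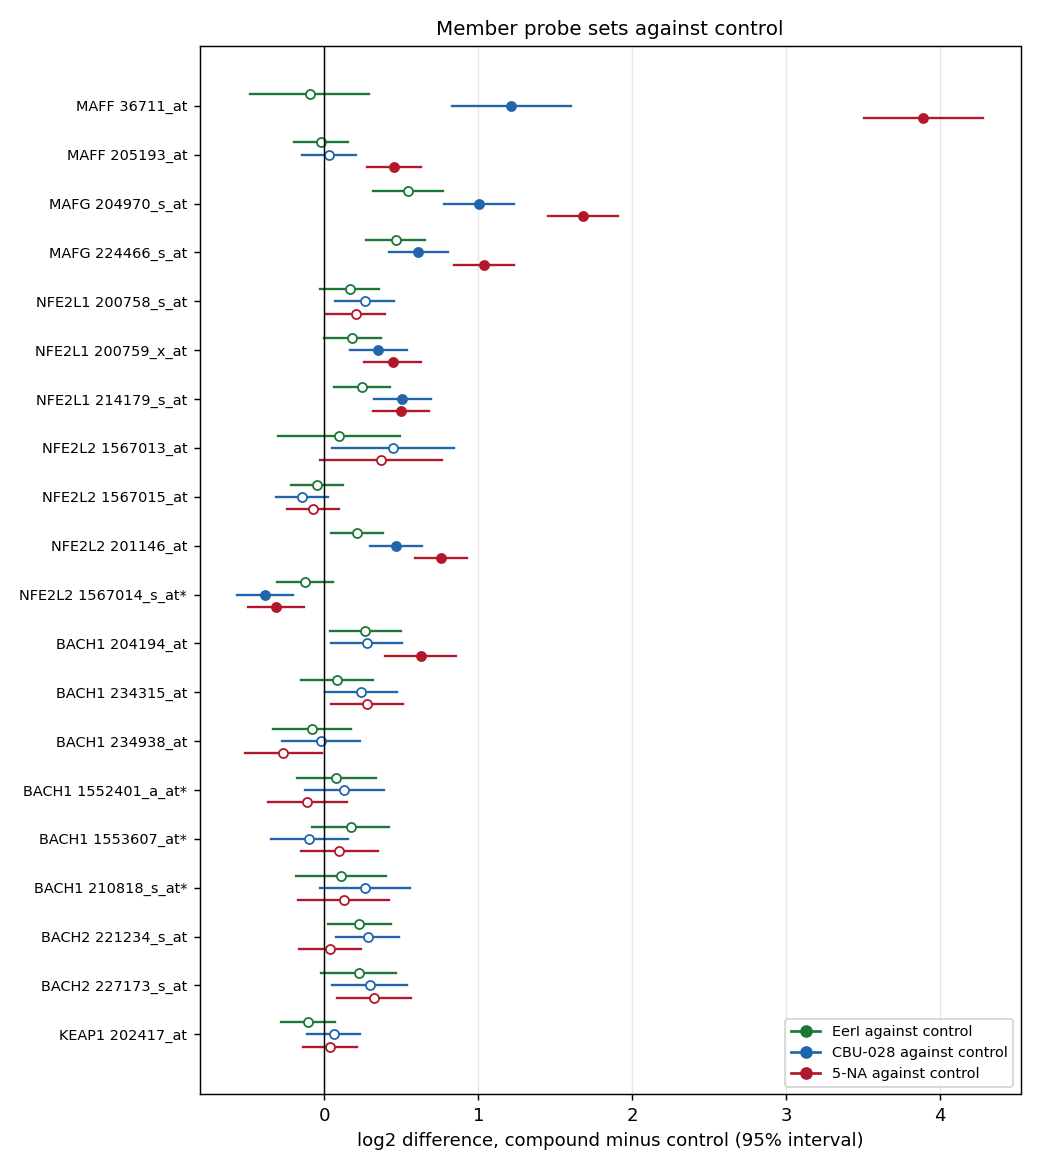
Difference from control of the 20 member probe sets, in log2 units (horizontal axis), for EerI (green), CBU-028 (blue) and 5-NA (red), with bars for 95% intervals. Filled points have an adjusted p under 0.05 in limma and asterisks mark probe sets shared with another gene; the largest difference is that of MAFF 36711_at with 5-NA, at 3.89.

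MAFF, a small MAF protein whose gene is known for induction by stress, has a pair of probe sets that disagreed in size. On the first, 36711_at, the values were 4.71 and 4.84 with EerI, 5.92 and 6.25 with CBU-028, and 8.99 and 8.53 with 5-NA, against 5.03 and 4.71 in control. The EerI arrays overlapped those of control, while both CBU-028 arrays and, further up, both 5-NA arrays lay above all the others. On this probe set MAFF was 3.89 ± 0.172 (SE, n = 2 each) higher with 5-NA than in control, with an adjusted p of 1.67e-05 in limma. That is an estimated 14.8-fold, and the 95% interval of the difference was 3.50 to 4.28. With CBU-028 the difference was 1.21 ± 0.172, an estimated 2.32-fold (limma, adjusted p = 0.00322). The methods' analysis of variance did not call it after adjustment (adjusted p = 0.0859). It was called at the methods' own rule, an unadjusted p under 0.05 and at least 2-fold. With EerI it was −0.10, with a 95% interval of −0.48 to 0.29 (limma, adjusted p = 0.939), and leaving out control replicate 1 turned it to 0.07. This probe set was dim in control, with only 16.7% of probe sets below it, against 34.4% with CBU-028 and 76.0% with 5-NA. With EerI 15.3% lay below it. The values used here carry no detection calls, so signal and background cannot be told apart at these levels. Folds of this probe set over control or EerI may therefore be too small, and they are estimates rather than bounds.

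On the other MAFF probe set, 205193_at, the values were 7.01 and 7.05 with EerI, 7.06 and 7.10 with CBU-028, and 7.55 and 7.45 with 5-NA, against 7.04 and 7.06 in control. Only the 5-NA arrays stood apart, by 0.45 ± 0.0785 (SE, n = 2 each) or 1.37-fold (limma, adjusted p = 0.00549). That call was lost when control replicate 1 was left out (limma, adjusted p = 0.0567). The differences with EerI, −0.02, and with CBU-028, 0.03, had 95% intervals of −0.20 to 0.15 and of −0.15 to 0.21. The rise with CBU-028 was therefore seen on 36711_at and not on 205193_at. Within an array, 36711_at minus 205193_at was −2.30 and −2.21 with EerI, −1.14 and −0.85 with CBU-028 and 1.44 and 1.08 with 5-NA, against −2.01 and −2.36 in control. The shift between 5-NA and control was thus unequal on the probe sets of 1 gene. Over the 8 arrays, which share the compounds, their values correlated with r = 0.966. Which transcripts of MAFF each probe set matches was not tested.

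MAFG, another small MAF protein and a partner of NRF2, rose with both CBU-028 and 5-NA on both of its probe sets. On 204970_s_at the values were 9.94 and 10.12 with EerI, 10.43 and 10.55 with CBU-028, and 11.12 and 11.22 with 5-NA, against 9.58 and 9.40 in control. The groups did not overlap and stood in the order 5-NA, CBU-028, EerI, control. The difference from control was 1.68 ± 0.101 (SE, n = 2 each) with 5-NA, or 3.21-fold (limma, adjusted p = 6.16e-05), and 1.01 ± 0.101 with CBU-028, or 2.01-fold (limma, adjusted p = 0.000712). With EerI it was 0.54, with a 95% interval of 0.32 to 0.77, and missed the threshold (limma, adjusted p = 0.0644).

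The second MAFG probe set, 224466_s_at, read 8.31 and 8.26 with EerI, 8.45 and 8.42 with CBU-028, and 8.95 and 8.77 with 5-NA, against 7.82 and 7.83 in control. The order of the groups was that of the first, with smaller steps. Its difference was 1.04 ± 0.0853 with 5-NA (SE, n = 2 each; limma, adjusted p = 0.000237) and 0.61 with CBU-028 (limma, adjusted p = 0.00304). With EerI it was 0.46 (limma, adjusted p = 0.0644), so both EerI arrays were above both control arrays on both MAFG probe sets without a call. Both EerI differences passed the threshold when either CBU-028 array was left out, with the lowest adjusted p at 0.0423 for 204970_s_at and 0.0449 for 224466_s_at in limma.

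**Figure D2:**
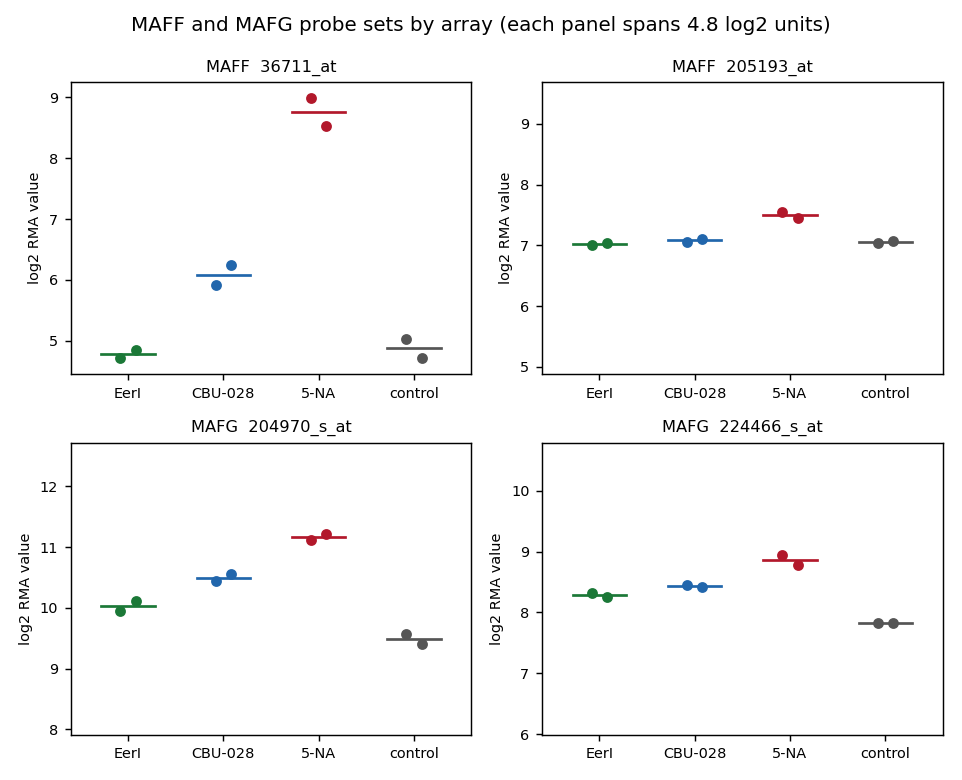
Log2 RMA values (vertical axis) of the MAFF and MAFG probe sets in each group (horizontal axis); points are arrays, 2 per group, and lines are group means, with every panel spanning the same number of log2 units. The 5-NA arrays are highest in all 4 panels, and the rise of MAFF with CBU-028 shows on 36711_at only.

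Of the NRF factors, NFE2L2, which encodes NRF2, rose with CBU-028 and 5-NA on its brightest probe set. On 201146_at the values were 10.34 and 10.37 with EerI, 10.63 and 10.59 with CBU-028, and 10.90 and 10.90 with 5-NA, against 10.13 and 10.16 in control. Duplicates lay closer together than any neighbouring groups did. The difference was 0.75 ± 0.0748 (SE, n = 2 each) with 5-NA, or 1.69-fold (limma, adjusted p = 0.000499), and 0.46 with CBU-028, or 1.38-fold (limma, adjusted p = 0.00592). Leaving out control replicate 1 or 2 ended the CBU-028 call, with adjusted p up to 0.0704 in limma. With EerI it was 0.21, with a 95% interval of 0.04 to 0.38 (limma, adjusted p = 0.378).

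The other NFE2L2 probe sets did not follow it. On 1567013_at the differences were 0.10 with EerI, 0.44 with CBU-028 and 0.37 with 5-NA, and on 1567015_at they were −0.05, −0.15 and −0.07 in that order of compounds, none of them called. On 1567014_s_at, shared with the kinase subunit gene CSNK2A1, the values were 8.74 and 8.69 with EerI, 8.52 and 8.39 with CBU-028, and 8.54 and 8.50 with 5-NA, against 8.84 and 8.83 in control. It was lower by 0.38 with CBU-028 (limma, adjusted p = 0.019) and by 0.31 with 5-NA (limma, adjusted p = 0.0303), and it is the 1 member called lower in each of these comparisons. Its signals of NFE2L2 and CSNK2A1 cannot be told apart. The CBU-028 call was lost without control replicate 1 or 2, with adjusted p up to 0.138 in limma, and the 5-NA call when any array of EerI, 5-NA or control was left out, with adjusted p up to 0.167 in limma.

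NFE2L1, which encodes the ER-bound factor NRF1, rose by less than 1.5-fold on 2 of its 3 probe sets. On 214179_s_at the values were 9.42 and 9.35 with EerI, 9.65 and 9.65 with CBU-028, and 9.60 and 9.69 with 5-NA, against 9.10 and 9.18 in control. The CBU-028 and 5-NA arrays overlapped each other and lay above the rest. The difference from control was 0.51 ± 0.0807 with CBU-028 (SE, n = 2 each; limma, adjusted p = 0.00544), lost without control replicate 1 (limma, adjusted p = 0.0694), and 0.50 with 5-NA (limma, adjusted p = 0.00395). On 200759_x_at it was 0.35 with CBU-028 (limma, adjusted p = 0.0295) and 0.44 with 5-NA (limma, adjusted p = 0.00743). The first of these was lost when any array of EerI, CBU-028 or control was left out, with adjusted p up to 0.202 in limma, and the second without control replicate 1 or 2, with adjusted p up to 0.0723 in limma. On 200758_s_at the differences were 0.17 with EerI, 0.26 with CBU-028 and 0.20 with 5-NA, and none was called (limma, lowest adjusted p = 0.0946). EerI was 0.18 above control on 200759_x_at and 0.24 on 214179_s_at, without a call.

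BACH1, the repressor released by heme, rose with 5-NA on its bright probe set. On 204194_at the values were 8.19 and 8.23 with EerI, 8.14 and 8.31 with CBU-028, and 8.50 and 8.65 with 5-NA, against 8.04 and 7.86 in control. Every treated array lay above both control arrays, and the 5-NA arrays lay above all others. The difference was 0.63 ± 0.102 with 5-NA, or 1.54-fold (SE, n = 2 each; limma, adjusted p = 0.004), and 0.27 with both EerI (limma, adjusted p = 0.414) and CBU-028 (limma, adjusted p = 0.141). The 2 other BACH1 probe sets with a single symbol, 234315_at and 234938_at, read between 5.85 and 6.55 on all arrays and were not called. Their differences with 5-NA had opposite signs, 0.28 and −0.27 in that order. With EerI they were 0.08 and −0.08, and with CBU-028 0.24 and −0.02. The 3 BACH1 probe sets shared with the RNA genes GRIK1-AS2 or LINC00189 read between 3.16 and 5.12, and none was called either.

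BACH2, the paralog of BACH1 known from B cells, had values of 7.02 to 7.41 on 221234_s_at and 7.42 to 7.89 on 227173_s_at. With 5-NA its differences were 0.04 and 0.32, with CBU-028 0.28 and 0.29, and with EerI 0.23 and 0.22, none of them called (limma, lowest adjusted p = 0.0785). KEAP1 read 11.06 and 11.03 with EerI, 11.24 and 11.20 with CBU-028, and 11.23 and 11.15 with 5-NA, against 11.15 and 11.16 in control. Its differences of −0.11, 0.06 and 0.04 in that order of compounds had 95% intervals within −0.28 and 0.23 and were not called.

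**Figure D3:**
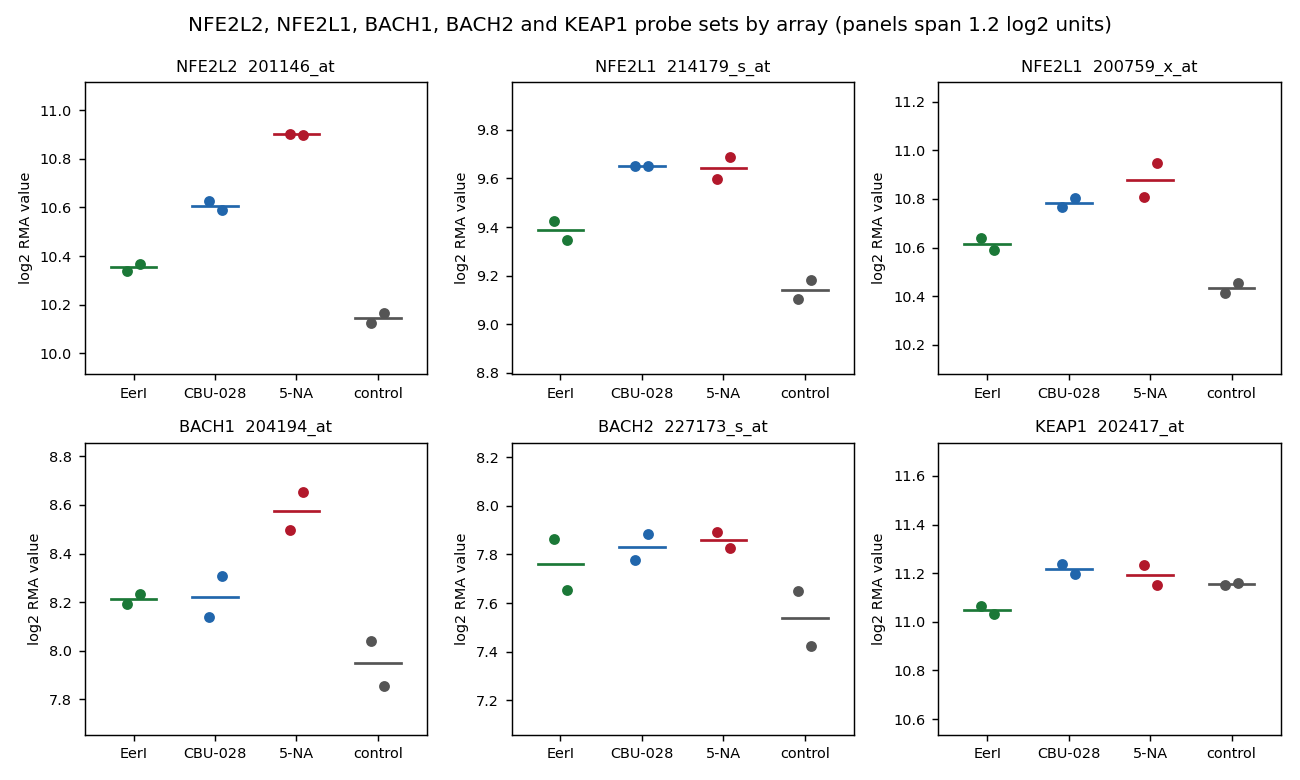
Log2 RMA values (vertical axis) of 6 probe sets of NFE2L2, NFE2L1, BACH1, BACH2 and KEAP1 in each group (horizontal axis); points are arrays, 2 per group, and lines are group means. The panels span fewer log2 units than those of MAFF and MAFG, and the 5-NA arrays of NFE2L2 lie at 10.90 while KEAP1 stays between 11.03 and 11.24 in all groups.

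Signs of RNA quality and composition also differed on the 5-NA arrays. The control probe set for 28S ribosomal RNA read 12.4 and 12.7 with 5-NA, against 11.3 on both control arrays, and 11.5 to 11.8 with EerI and CBU-028. The 3′ probe set of ACTB exceeded its 5′ probe set by 0.363 on 5-NA replicate 2 and by 0.0743 to 0.196 on the other 7 arrays. Their part in the rises of MAFF and MAFG was not tested. Leaving out a single array cannot test it for 28S, since both 5-NA arrays read higher than all others. Without 5-NA replicate 2 or any other single array, the 5-NA difference from control of MAFF 36711_at was 3.66 to 4.12, that of MAFG 204970_s_at 1.59 to 1.77 and that of NFE2L2 201146_at 0.74 to 0.77, and all 3 kept their calls.

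The compounds were next compared with each other at the same dose and time, which sets EerI against 5-NA, its unit without the aromatic domain. With 5-NA against EerI, 6 of 20 members were called higher, against 6.93% of all probe sets, and 0 lower, against 7.08%. MAFF 36711_at was 3.99 ± 0.172 higher with 5-NA (SE, n = 2 each; limma, adjusted p = 4.72e-05), an estimated 15.9-fold over dim EerI values. MAFG 204970_s_at was 1.14 ± 0.101 higher, or 2.2-fold (limma, adjusted p = 0.000386). The other 4 were MAFF 205193_at at 0.47, MAFG 224466_s_at at 0.58, NFE2L2 201146_at at 0.55 and BACH1 204194_at at 0.36. Of these calls, MAFF 205193_at was lost without EerI replicate 1 (limma, adjusted p = 0.0523) and BACH1 204194_at without any array of EerI, 5-NA or control, with adjusted p up to 0.234 in limma, and with the methods' analysis of variance (adjusted p = 0.146). The NFE2L1 probe sets differed by 0.04 to 0.26, and the interval of the widest, 200759_x_at, was 0.07 to 0.45 (limma, adjusted p = 0.0691).

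With 5-NA against CBU-028, 5 members were called higher, against 5.51% of all probe sets, and 0 lower, against 5.09%. They were MAFF 36711_at at 2.68 (limma, adjusted p = 0.000382), MAFF 205193_at at 0.42, MAFG 204970_s_at at 0.68 (limma, adjusted p = 0.00419), MAFG 224466_s_at at 0.43 and NFE2L2 201146_at at 0.29 (limma, adjusted p = 0.0385). Without 5-NA replicate 1 the calls of MAFF 205193_at (limma, adjusted p = 0.0637) and MAFG 224466_s_at (limma, adjusted p = 0.0788) were lost, and that of NFE2L2 was lost whichever array was left out. After adjustment, the methods' analysis of variance ended both MAFG calls (adjusted p = 0.0545 and 0.0543). A limma fit of the 4 arrays of both compounds alone ended those of MAFF 205193_at, MAFG 224466_s_at and NFE2L2. NFE2L1 214179_s_at differed by −0.01, with a 95% interval of −0.19 to 0.17.

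With CBU-028 against EerI, 2 members were called higher, against 1.28% of all probe sets, and 0 lower, against 1.67%. MAFF 36711_at was higher by 1.31 ± 0.172 (SE, n = 2 each; limma, adjusted p = 0.0103), a call lost without EerI replicate 1 or 2, with adjusted p up to 0.117 in limma. MAFG 204970_s_at was higher by 0.46 (limma, adjusted p = 0.046), and this was lost whichever array was left out. The methods' analysis of variance after adjustment and a limma fit of the 4 arrays of both compounds alone ended both calls. Adjusted p in these fits was up to 0.129 for MAFF and 0.174 for MAFG. The methods' own rule, unadjusted and 2-fold, kept the call of MAFF 36711_at. MAFF 205193_at differed by 0.05 with an interval of −0.12 to 0.23, NFE2L2 201146_at by 0.25 with an interval of 0.08 to 0.42, and BACH1 204194_at by 0.01 with an interval of −0.22 to 0.24, none of them called.

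**Figure D4:**
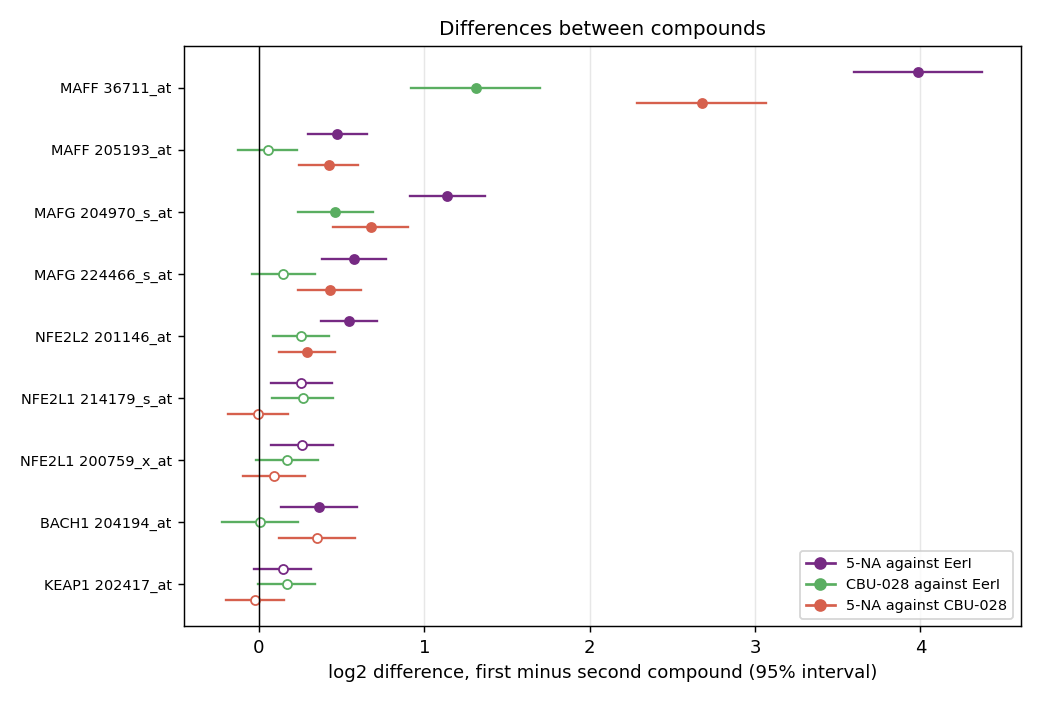
Differences between compounds, in log2 units of the first minus the second (horizontal axis), for 9 member probe sets, with 95% intervals and filled points for an adjusted p under 0.05 in limma. MAFF 36711_at is 3.99 higher with 5-NA than with EerI and 2.68 higher than with CBU-028.

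Genes around these regulators were read from lists, each gene by its brightest probe set. Of 30 measured NRF2 target genes, 3 passed the test with EerI, 10 with CBU-028 and 9 with 5-NA, all higher, against 0.506%, 5.49% and 7.87% of all 19775 genes higher in the same order, and 0.263%, 7.1% and 10.9% lower. The medians of the list were 0.05, 0.06 and 0.08, so the middle of the list lay near 0 with each compound. HMOX1, the heme-degrading enzyme that BACH1 represses, read 12.77 and 12.78 with EerI, 13.68 and 13.47 with CBU-028, and 13.07 and 13.01 with 5-NA, against 9.82 and 9.86 in control. Its difference was 2.94 with EerI, 3.74 with CBU-028 and 3.20 with 5-NA. SLC7A11, the cystine transporter, was higher by 2.90, 2.89 and 2.04, and GCLM, a subunit of the enzyme that starts glutathione synthesis, by 0.82, 1.36 and 1.48, in the same order of compounds. TXNRD1, a thioredoxin reductase, was higher by 0.59 with CBU-028 and 0.81 with 5-NA, and its 0.40 with EerI missed the threshold (limma, adjusted p = 0.0658).

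The order of the compounds differed between genes. For MAFF 36711_at and MAFG 204970_s_at, 5-NA gave higher values than EerI, whereas SLC7A11 was lower with 5-NA than with EerI by 0.86 (limma, adjusted p = 0.000463) and HMOX1 differed by 0.27 (limma, adjusted p = 0.0887). HMOX1 was 0.53 lower with 5-NA than with CBU-028 (limma, adjusted p = 0.00723), where MAFF 36711_at was 2.68 higher. With EerI, HMOX1 and SLC7A11 rose against control, while the differences of the MAFF probe sets were −0.10 and −0.02.

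**Figure D5:**
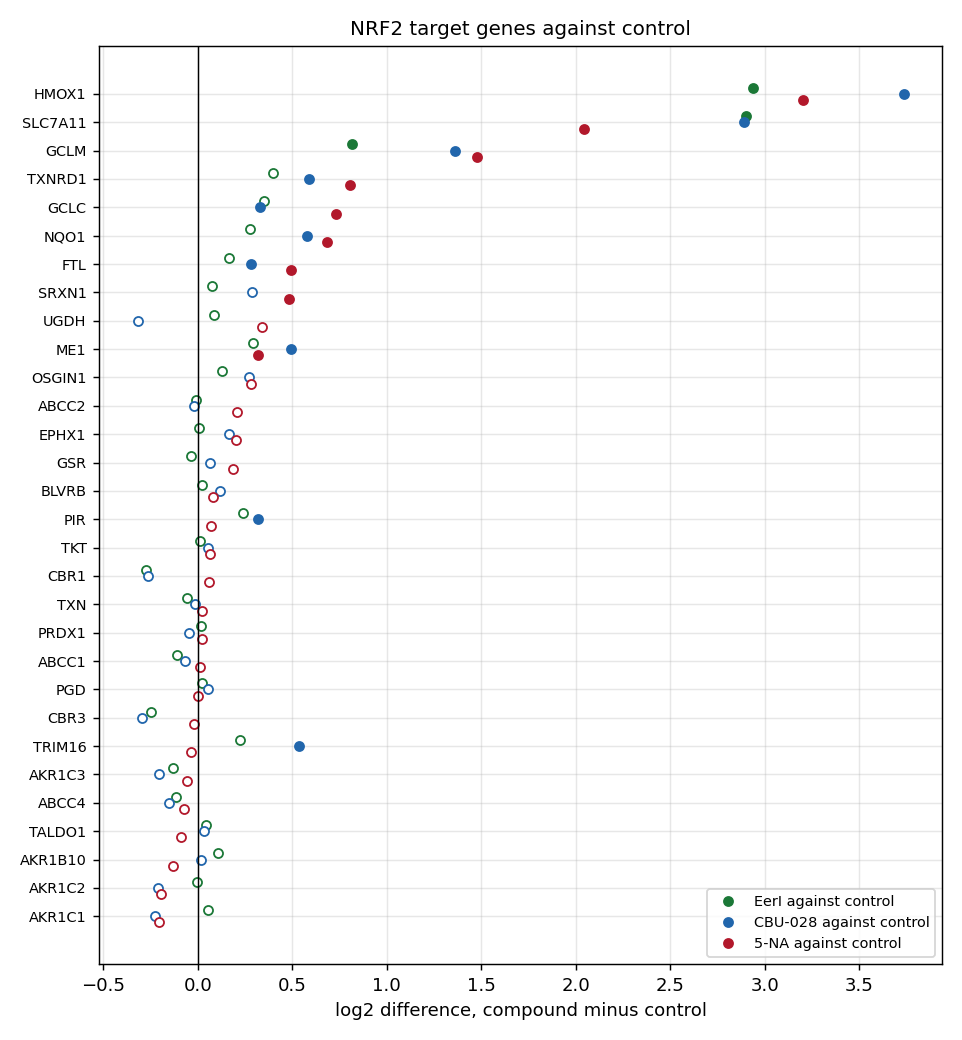
Difference from control, in log2 units (horizontal axis), of the 30 measured NRF2 target genes for EerI (green), CBU-028 (blue) and 5-NA (red), in the order of the 5-NA values; filled points have an adjusted p under 0.05 in limma. HMOX1, SLC7A11 and GCLM lie apart from the other genes with all 3 compounds.

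Another list held 7 measured genes that BACH1 represses, most of them heme and iron genes, which GCLM and ME1 are not. Of these 7, 2 passed the test with EerI (HMOX1 and GCLM) and 5 with CBU-028 (these and FTL, ME1 and SLC48A1). With 5-NA 4 passed (HMOX1, GCLM, FTL and ME1), and all were higher. Among all genes, 0.506%, 5.49% and 7.87% were higher in the same order of compounds. The medians of the list were 0.29, 0.41 and 0.32. FTL, the ferritin light chain, was 0.28 higher with CBU-028 and 0.49 with 5-NA. Of 7 genes, 5 also stand in the list of NRF2 targets.

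Of 14 genes for the control of NRF2 and BACH1 protein, 0 passed with EerI, 1 higher and 1 lower with CBU-028, and 2 higher and 1 lower with 5-NA. Among all genes, 0.506% were higher and 0.263% lower with EerI, 5.49% and 7.1% with CBU-028, and 7.87% and 10.9% with 5-NA. SQSTM1, the p62 adaptor that binds KEAP1, was 0.52 higher with CBU-028 (limma, adjusted p = 0.00837) and 1.01 higher with 5-NA (limma, adjusted p = 0.000347). CUL3, the scaffold of the KEAP1 ligase, was 0.56 higher with 5-NA and 0.29 lower with CBU-028, and RBX1, the RING subunit of that ligase, was 0.31 lower with 5-NA.

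Of 9 measured genes for NRF1 processing, 0 passed with EerI or CBU-028, and 2 were higher and 1 lower with 5-NA. Among all genes, 0.506% were higher and 0.263% lower with EerI, 5.49% and 7.1% with CBU-028, and 7.87% and 10.9% with 5-NA. With 5-NA, DERL1, a channel component of ER-associated degradation, was 0.36 higher. FBXW7, which marks NRF1 for degradation, was 0.49 higher with 5-NA, and OGT, a glycosyltransferase, was 0.39 lower. VCP, which encodes p97, differed by 0.27 with 5-NA and was not called (limma, adjusted p = 0.057). Of 29 measured proteasome genes, 0 passed with EerI or CBU-028, and with 5-NA 1 did, PSMD12 of the regulatory particle, at 0.56. The same shares of all genes stand beside these counts. The medians of the proteasome list were 0.03 with EerI, 0.08 with CBU-028 and 0.03 with 5-NA.

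Of 4 measured relatives of the members, NFE2, NFE2L3, MAF and NRL, 0 passed with EerI, and 2 were lower with both CBU-028 and 5-NA. Among all genes, 0.263% were lower with EerI, 7.1% with CBU-028 and 10.9% with 5-NA. NFE2L3, another factor of the NRF family, read 7.83 and 7.87 with EerI, 7.13 and 7.43 with CBU-028, and 7.45 and 7.59 with 5-NA, against 8.17 and 7.92 in control. It fell by 0.76 with CBU-028 (limma, adjusted p = 0.00551) and by 0.52 with 5-NA (limma, adjusted p = 0.02). MAF, a large MAF protein with an activation domain, fell by 0.77 with CBU-028 (limma, adjusted p = 0.00251) and by 0.38 with 5-NA (limma, adjusted p = 0.0354). With EerI, NFE2L3 differed by −0.20 (limma, adjusted p = 0.704) and MAF by −0.45 (limma, adjusted p = 0.129), neither called. NFE2L3 and MAF were thus called lower with CBU-028 and 5-NA, where MAFF 36711_at and MAFG were called higher. Across the compounds MAF did not mirror MAFF 36711_at, which differed by −0.10 with EerI and by 3.89 with 5-NA.

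Among 541 probe sets with a single gene symbol whose group means span at least 1 log2 unit, likeness to a member was measured by Pearson's r over the 8 arrays, as a description. The genes most like MAFF 36711_at were the histone genes H2BC6, H2BC5 and H2BC12L, the Mediator subunit MED26 and the AP-1 member FOSL1, with r between 0.993 and 0.998. FOSL1 was 0.09 higher with EerI, 0.42 with CBU-028 and 1.44 with 5-NA than in control. The genes most like MAFF 205193_at were RNF4, DUSP5, ETV5, PLK2 and STK17B, with r between 0.985 and 0.993. Those most like MAFG 204970_s_at were JMY, DUSP1, ZFAND2A, KLF4 and TUFT1, with r between 0.979 and 0.987, and those most like NFE2L2 201146_at were RPL37, ZFAND2A, ZFAND5, MAFG and JMY, with r between 0.987 and 0.994. No gene stood in the lists of both MAFF probe sets, and ZFAND2A and JMY stood in those of both MAFG and NFE2L2.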

How the data were processed

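RNA of 293T cells was measured on 8 Affymetrix arrays. The authors made the deposited log2 values with RMA, and Partek is also named in the submitters' processing notes, both without a version. Identifiers of the probe sets belong to HG-U133 Plus 2.0, and the methods name another array. A mean for each of the 4 groups was estimated from all 8 arrays in R 4.3.3 with limma 3.58.1, which gave 4 residual and 5.08 prior degrees of freedom and a median SE of 0.099 for a log2 difference, and 6 comparisons were tested. With 2 arrays a group, precision is limited by their number. All member probe sets are named, with up to 4 genes of each list by smallest adjusted p against control, any past 2-fold and, for likeness, 5 genes per probe set. SLC48A1 was named after its values were seen. The members and lists were chosen with earlier results of these data known. In data simulated for 5-NA against control on 54675 probe sets, limma called 36% of true 1.5-fold rises and 82% of true 2-fold rises. Only 50 probe sets were changed at each simulated size and direction, whereas 4000 were called higher in the real comparison. The adjusted p depends on how many probe sets change, so these shares are not the power of the real comparison. The labels do not say whether equal replicate numbers pair the samples, and the main fit used no pairing. Correlations of deviations between same-numbered arrays ran from −0.146 to 0.146. Alternatives were the methods' analysis of variance, fold thresholds, floors, renewed normalization, other fits and left-out arrays. The methods selected at an unadjusted p under 0.05 and 2-fold, so an adjusted p of that analysis of variance is not their rule. Figures used matplotlib 3.10.9.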

Additional observations from a re-analysis of the deposited data

How the results depend on the processing

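Against control, the counts of called members were 0 with EerI, 7 with CBU-028 and 9 with 5-NA, and between compounds 6 for 5-NA against EerI, 2 for CBU-028 against EerI and 5 for 5-NA against CBU-028. With a single array left out they ranged from 0 to 2, 3 to 7, 6 to 10, 4 to 6, 0 to 2 and 2 to 6 in that order. CBU-028 against control fell to 3 without control replicate 1 and 4 without control replicate 2, while the share of all probe sets called fell as well, to 1.38% higher and 1.24% lower and to 1.27% and 1.66%, against 4.4% and 5.27% with all arrays. 5-NA against CBU-028 fell to 2 without 5-NA replicate 1, with 2.66% of all probe sets called higher and 2.37% lower, against 5.51% and 5.09%. EerI against control gave 2 without either CBU-028 array, with a trend in the prior variance and with a floor of 7, which left 12 members in the fit. In these fits 0.611%, 0.735% and 1.23% of all probe sets were called higher, against 0.357%. It gave 1 with the compared groups alone, with 0.421% called higher, and with 1 probe set per gene, with 0.981%. The 2-fold threshold, with limma or with the methods' analysis of variance unadjusted, left 2 with CBU-028 and 3 with 5-NA against control, 2 for 5-NA against EerI, 1 for CBU-028 against EerI and 1 for 5-NA against CBU-028. These were all higher, against 0.254%, 0.483%, 0.358%, 0.0329% and 0.212% of all probe sets called higher at 2-fold in that order. The 1.5-fold threshold left 3, 5, 2, 1 and 2 in the same order. They were all higher too, against 1.47%, 2.53%, 2.24%, 0.373% and 1.69% of all probe sets. One probe set per gene gave 3 for CBU-028 and 5 for 5-NA against control and 1 for CBU-028 against EerI, with 7 genes in the fit. All of these were higher, against 7.31%, 9.79% and 2.91% of all genes called higher in that fit. For CBU-028 against EerI, the adjusted analysis of variance and the compared groups alone gave 0, with 0.0494% and 0.00549% of all probe sets called higher, against 1.28%, and renewed quantile normalization gave 1, with 1.48%. For 5-NA against CBU-028, the adjusted analysis of variance gave 3 and the compared groups alone 2, with 2.32% and 1.85% of all probe sets called higher. With the replicate number as a block the counts were 0, 7, 9, 5, 1 and 4. Of all probe sets, 0.3%, 4%, 7.03%, 6.47%, 1.02% and 5.07% were called higher in that fit, and 0.101% to 7.45% lower. Whether the numbers pair the samples is not given by the labels. Crossing the EerI numbers in the block, chosen after seeing the data, gave 0 for EerI against control and 1 for CBU-028 against EerI. There 0.324% and 1.26% of all probe sets were called higher. The cause of these shifts was not tested.

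No called probe set changed sign under any of these alternatives. Uncalled ones that did are given by their range over left-out arrays. For the comparisons of compounds, sign changes were followed only in single-symbol probe sets called in some comparison, so that list is partial. With EerI against control, MAFF 36711_at ranged from −0.26 to 0.066, BACH1 210818_s_at from −0.11 to 0.32 and BACH1 1552401_a_at from −0.067 to 0.22. With CBU-028 against control, BACH1 234938_at ranged from −0.091 to 0.043 and BACH1 1552401_a_at from −0.015 to 0.27. With 5-NA against control, BACH1 1553607_at ranged from −0.046 to 0.24, BACH1 1552401_a_at from −0.26 to 0.031, BACH1 210818_s_at from −0.092 to 0.34, BACH2 221234_s_at from −0.051 to 0.12 and KEAP1 202417_at from −0.0029 to 0.076. Between compounds, BACH1 204194_at with CBU-028 against EerI ranged from −0.076 to 0.093, and NFE2L1 214179_s_at with 5-NA against CBU-028 from −0.053 to 0.038, and was 0.00089 after renewed quantile normalization.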
